A study of Gallus gallus with 65 samples.

Results

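The genes described here encode basic helix-loop-helix (bHLH) transcription factors and nuclear effectors of the Notch pathway. Their probes were chosen by symbol, by a rule that reads no measured value but was set with earlier results of these data known: all HES, HEY, ID, NEURO, ATOH, ASCL, NHLH, OLIG, MYOD, MYF, MYOG, TAL, LYL1, TWIST, HAND, USF, SREBF, MITF, TFE, ARNT, AHR, HIF1A, EPAS1, CLOCK, NPAS, SIM, BHLHB, NOTCH, RBPSUH, RBPJ, MAML and TLE names and TCF3, TCF4, TCF12, TCF15 and TCF21. Of the 1507 gene probes on the array, 51 met this rule, and 44 of the 51 were bright enough to be tested. No probe carried a NOTCH, MAML, ASCL, OLIG or TWIST symbol. The rule does not reach genes under older names, such as TNRC3, for which the study gives MAML3 as the updated symbol. The probes were human oligonucleotides hybridised with chicken RNA, each spotted in duplicate, and 43 of the 51 symbols are a symbol or synonym of a chicken gene in the RefSeq table of assembly GRCg7b. The other 8 were BHLHB3, HES2, HES7, LYL1, NPAS1, RBPSUHL, TFE3 and USF2.

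The arrays compared neomycin-treated with untreated sensory epithelia, cultured for the same time, of the utricle, an inner ear organ that senses head movement and gravity. Organs of post-hatch White Leghorn chicks were kept for 24 hr in medium with the aminoglycoside neomycin, which kills hair cells, and their epithelia were taken straight away (0 hr) or after 24 or 48 hr of recovery. Control organs went through the same culture without the drug. Each of the 3 time points had 3 biological replicates, each a pool of treated and a pool of control epithelia isolated with thermolysin, amplified and labelled with Cy3 or Cy5. Both pools of a replicate shared every array, so every value below is a log2 ratio of neomycin over control. There were 25, 21 and 19 arrays at 0, 24 and 48 hr, with neomycin in Cy3 on 34 and in Cy5 on 31. No source used here ties the replicates to separate groups of birds, so p-values measure the spread between these pools. In such mixed tissue, fewer cells of a type and less RNA per cell cannot be told apart.

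bHLH factors bind DNA as dimers. Tissue-specific members such as ATOH1 pair with widely expressed E proteins to switch genes on, ID proteins lack a DNA-binding region and hold E proteins in inactive dimers, and HES and HEY proteins repress. When a Notch receptor is activated, its intracellular part joins RBPJ and MAML on DNA and induces HES and HEY genes, whose products act with TLE corepressors. In the inner ear ATOH1 drives hair cell formation and Notch signalling holds neighbouring cells in the supporting cell state. Chick supporting cells can replace lost hair cells, and this is the process that the time course samples.

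The signals behind these values were low. The brightness of a probe, the geometric mean of both dyes without background correction, had a median over arrays from 414.6 to 3184 for the members, and 8 of the 51 reached 1000. Their spots were a median 1.79 times the local background, and the duplicate spots of a member gave ratios that correlated over the 65 arrays at a median r of 0.636, against 0.662 over all tested probes. With detection set here at a background-corrected mean of both dyes above 1000 in 50% or more of each replicate's arrays, HES7 and NEUROD6 were detected at 0 hr, none at 24 hr and NEUROD6 at 48 hr. Over all gene probes the detected share was 8.03%, 3.12% and 5.04%. Arrays of a replicate that shared the dye orientation correlated at a median r of 0.223 over the 1281 tested probes (96 pairs), and arrays of opposite orientation at -0.0619 (127 pairs). Of those 127 pairs, 14 were below -0.3. The dye of each pool is named in the image records of all 65 arrays and matched the titles, so the sign of the ratios is fixed by the labels. On 3 arrays the brightness pattern correlated with that of the other arrays at only 0.148 to 0.211, against 0.563 or more for the rest; they were arrays of 0 hr replicate 3 (2 arrays) and 48 hr replicate 3 (1 array), and where the direction or size of a described result turns on them, the value without them is given as well. Without these arrays 8 of the 88 values of tested members in those 2 replicates changed sign.

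No member passed an adjusted p of 0.05 in limma in any comparison. At 0, 24 and 48 hr the calls over all 1281 tested probes were also 0%, and in the mean over the 3 time points they were 0.390%. At an unadjusted p under 0.05 limma counted 1 member at 0 hr (NHLH2), where all tested probes gave 6.40%, 2 at 24 hr (TCF4 and HEY2), beside 5.93%, and 1 at 48 hr (NEUROG1), beside 7.42%. In the mean over time points it counted 2 (LYL1 and TCF4), beside 12.2%. The methods' t-test, run on the same replicate values, called 0 members as well. In this fit, with the study's limits of 1.2-fold (0.26 on the log2 scale) and an unadjusted p under 0.05, TCF4 at 24 hr was the only member to pass at a single time point. It was 1 of 44 members, where 2.73% of all tested probes passed and 1.41% passed in the lower direction. At 0 hr, at 48 hr and in the mean over time points 0 members passed, beside 3.12%, 2.89% and 1.56% of all probes. The number of members past these limits in this fit was thus near or under the background at every time point. The study's own list for the utricle after neomycin, from its own processing and p-values, named other members. These were HEY1 and TCF21 at 0 hr, HIF1A at 24 hr, and NEUROD6, SREBF1 and TCF21 at 48 hr, all lower. TCF4 was not in that list.

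**Figure D1:**
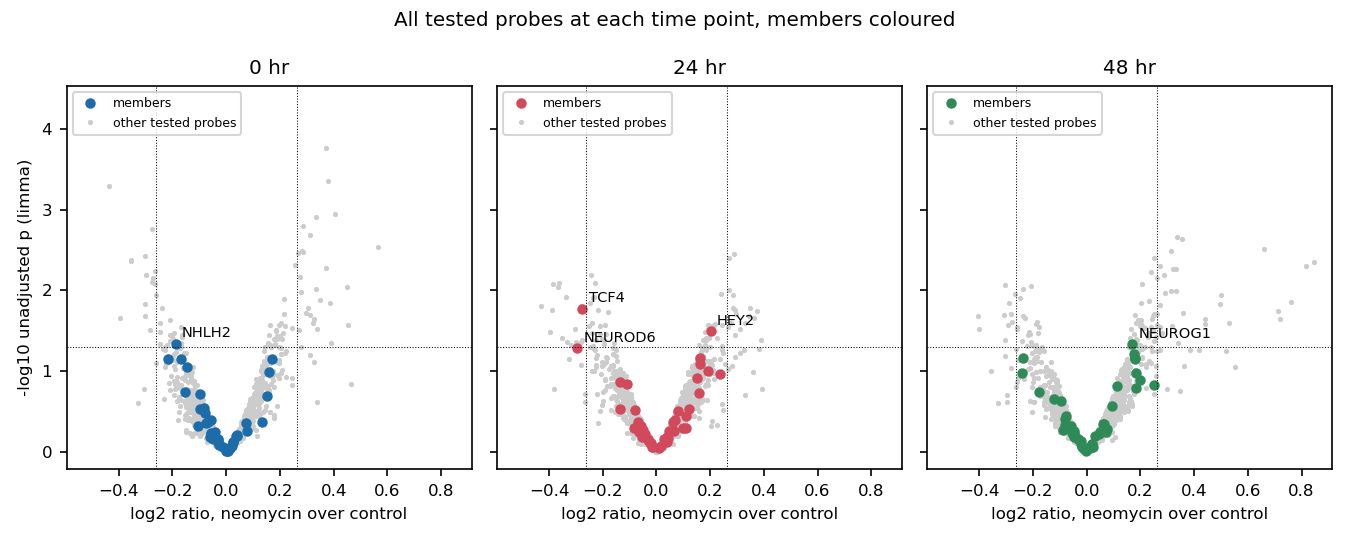
Log2 ratio of neomycin over control (x axis) and -log10 of the unadjusted limma p (y axis) of the 1281 tested probes at 0, 24 and 48 hr, with the 44 tested members coloured and all others grey; dotted lines mark 1.2-fold and p 0.05. TCF4 at 24 hr is the only member beyond both lines.

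The members' ratios were spread around 0 at each time. At 0 hr 18 of the 44 were above 0 and 26 below, with a median of -0.029 and a range from -0.22 (TCF21) to 0.17 (LYL1). At 24 hr 24 were above and 20 below 0, with a median of 0.022 and a range from -0.29 (NEUROD6) to 0.24 (AHR). At 48 hr 23 were above and 21 below 0, the median was 0.013 and the range ran from -0.24 (AHR and BHLHB3) to 0.25 (ID1). Over all tested probes the shares above 0 were 48.2%, 52.1% and 52.7%, against 40.9%, 54.5% and 52.3% for the members. All 3 replicates were above 0 for 5, 7 and 6 members at 0, 24 and 48 hr, beside 14.9%, 15.3% and 15.8% of all probes. All 3 were below 0 for 7, 5 and 4 members, beside 12.8%, 14.0% and 12.8%. The study also asked for a trend in at least 80% of hybridisations. No member reached that share of arrays in one direction at any time point, and 1.72%, 0.937% and 1.72% of all tested probes did at 0, 24 and 48 hr.

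The precision limits what these values can show. The median standard error of a member's mean at a time point was 0.088 on the log2 scale, and the 95% intervals before adjustment lay within 2-fold of no difference for all 44 members at every time point. They lay within 1.5-fold for 42 members at every time point, the exceptions being ID1 and NEUROD6, and within 1.2-fold for 12. These intervals cover the spread of the ratios as measured, and how far a ratio of dim spots stands for that of the RNA was not tested for the members. For other genes the study set array values beside qPCR and reported that the array in general understated the changes. The intervals are thus no bound on the change in RNA.

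**Figure D2:**
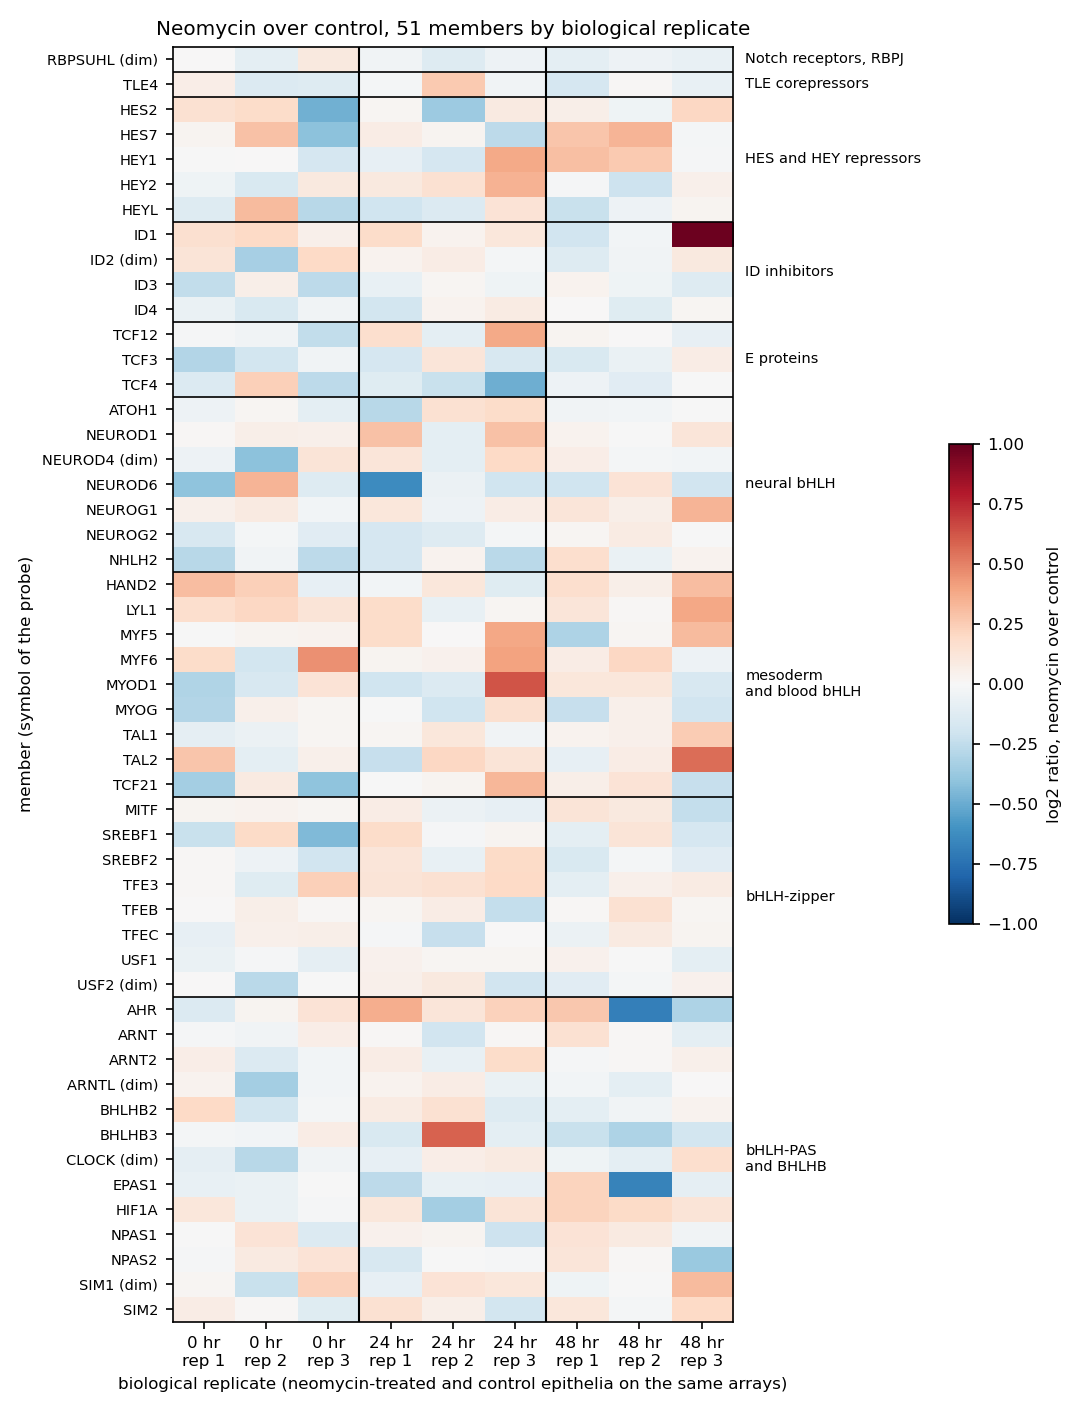
Log2 ratio of neomycin over control for all 51 members (rows, grouped by role, those too dim to test marked) in each biological replicate (columns, 3 at each time point); red is above and blue below 0. ID1 in 48 hr replicate 3 (0.98) and EPAS1 and AHR in 48 hr replicate 2 (-0.67 and -0.68) are the darkest cells, and in most groups both colours occur at each time point.

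Of the Notch receptors, RBPJ and coactivators the rule found a single probe, RBPSUHL, the RBPJ-like paralogue of the pathway's transcription factor. The coactivator MAML3, on the array as TNRC3, fell outside the rule and is not described here. How far this paralogue stands for Notch signalling was not tested. The RBPSUHL probe was too dim to test (brightness 466.0). Its log2 ratios were -0.000, -0.10 and 0.10 at 0 hr, then -0.037, -0.13 and -0.048 at 24 hr, and -0.10, -0.049 and -0.075 at 48 hr, so all 6 recovery replicates lay below 0 at sizes of at most 0.13. TLE4, a Groucho corepressor recruited by HES and HEY proteins, had ratios of 0.064, -0.14 and -0.13 at 0 hr, then -0.018, 0.26 and -0.033 at 24 hr, and -0.17, 0.012 and -0.073 at 48 hr. Its replicates straddled 0 at every time, and the smallest of its adjusted p-values at a single time point was 0.878 (limma, 48 hr).

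The 5 HES and HEY repressors gave means between -0.056 and -0.028 at 0 hr, between -0.084 and 0.20 at 24 hr and between -0.083 and 0.20 at 48 hr. HEY2, a Notch-induced repressor best known from the cardiovascular system, was the 1 of the 5 above 0 in all 3 replicates at 24 hr. Its ratios there were 0.10, 0.15 and 0.35 (mean 0.20 ± 0.13, SD, n = 3, which is 1.15-fold, adjusted p = 0.798 in limma). In replicate 3, however, the median array was 0.035, the highest 2.07 and 2 of 6 arrays were below 0. At 0 hr its ratios were -0.041, -0.15 and 0.10 and at 48 hr -0.014, -0.21 and 0.047, so the 24 hr replicates reached or passed the highest value of either other time. How many of all tested probes were so placed is not given here. Without the arrays of another brightness pattern, however, replicate 3 stood at -0.016 at 0 hr and at 0.17 at 48 hr, and the 24 and 48 hr replicates overlapped. The difference of 48 against 24 hr was -0.26 (95% interval -0.52 to -0.005, adjusted p = 0.999 in limma), and that of 24 against 0 hr was 0.23 (-0.025 to 0.49, adjusted p = 0.997). Without those arrays they were -0.22 and 0.27, the second at an unadjusted p of 0.0486 and an adjusted p of 0.999 in limma. By dye orientation its 24 hr mean was 0.35 with neomycin in Cy3 and 0.056 with neomycin in Cy5.

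HEY1, which is induced by Notch in many tissues, had ratios of -0.004, 0.004 and -0.17 at 0 hr, then -0.084, -0.17 and 0.38 at 24 hr, and 0.30, 0.26 and -0.010 at 48 hr. Its mean at 48 hr was 0.18 ± 0.17 (SD, n = 3; 95% interval -0.045 to 0.41; adjusted p = 0.715 in limma). HES7, known as an oscillating repressor of the mouse somite clock, had -0.028 as its 0 hr mean, from ratios of 0.030, 0.29 and -0.41, and 0.20 ± 0.19 at 48 hr, from 0.28, 0.34 and -0.020 (SD, n = 3; adjusted p = 0.764 in limma). In both genes replicates 1 and 2 lay above replicate 3 at 48 hr. Without the array of another brightness pattern, 48 hr replicate 3 stood at 0.025 for HES7 and at -0.036 for HEY1, and the 48 hr mean of HES7 was 0.21 (unadjusted p = 0.0477, adjusted p = 0.588, both in limma).

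HES2 and HES7 both sat lowest in 0 hr replicate 3, the replicate with 2 of the 3 arrays of another brightness pattern. HES2 was below 0 there on 10 of 10 arrays, from -1.69 to -0.026, with a replicate value of -0.48, and at -0.24 without those arrays. HES7 was at -0.41 and, without them, at -0.016. Over the 0 hr replicates the means without the 3 arrays were 0.028 for HES2 and 0.10 for HES7, against -0.052 and -0.028 with them. HES2 at 24 hr had 0.021, -0.36 and 0.086 and at 48 hr 0.057, -0.046 and 0.21, and HES7 at 24 hr had 0.071, 0.027 and -0.26. HEYL, a further Notch-induced repressor, had -0.13, 0.32 and -0.28 at 0 hr, then -0.20, -0.14 and 0.14 at 24 hr and -0.22, -0.052 and 0.028 at 48 hr, and the 3 time points overlapped throughout.

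**Figure D3:**
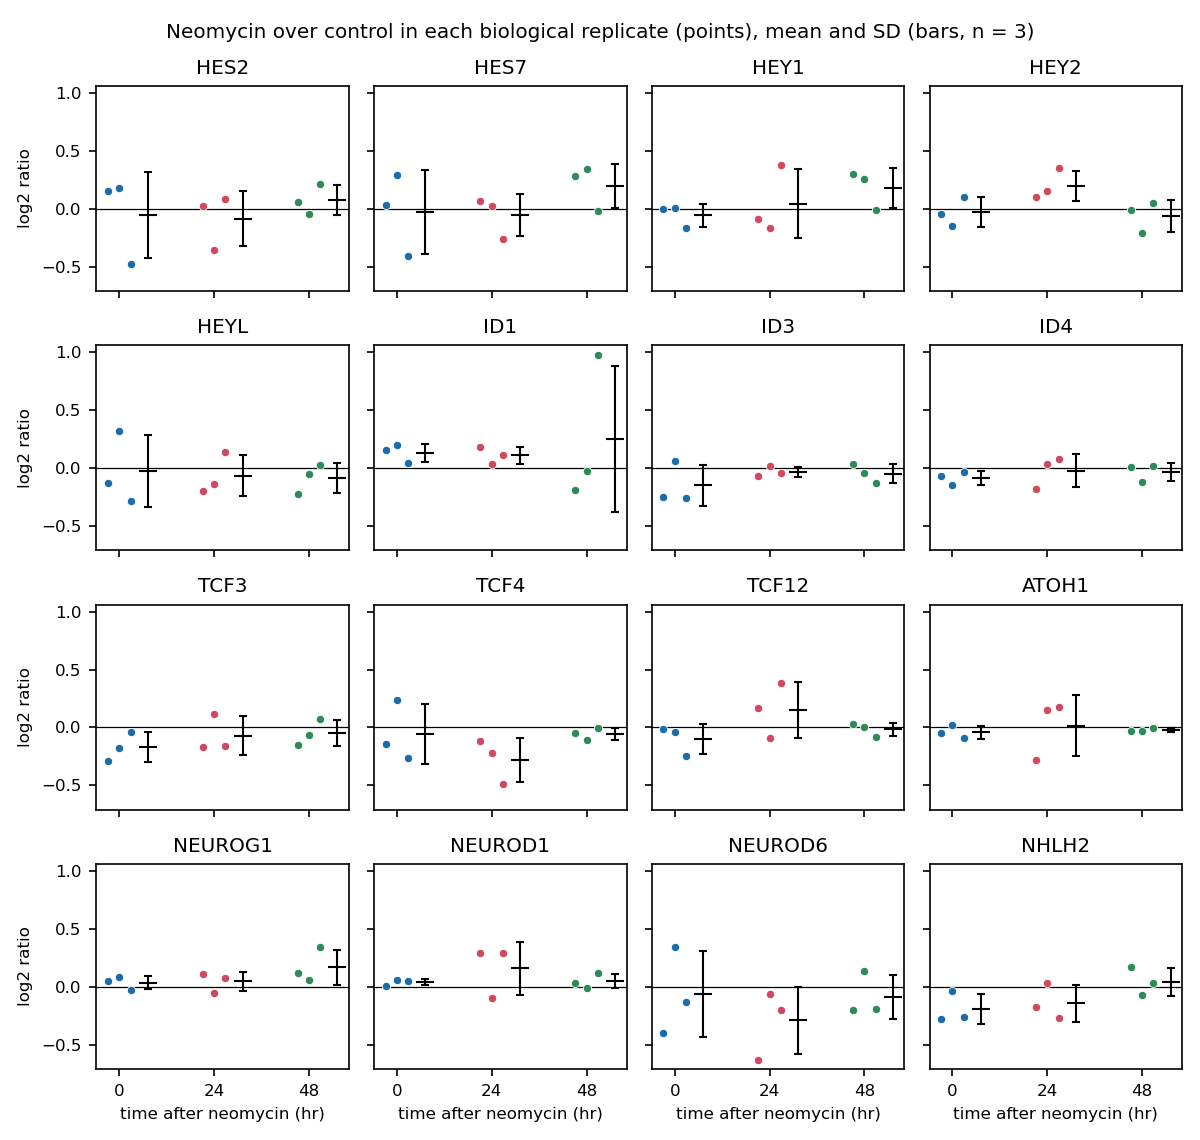
Log2 ratio of neomycin over control (y axis) at 0, 24 and 48 hr (x axis) for 16 members; points are biological replicates, black bars the mean and SD (n = 3). Most members have points on both sides of 0. At 24 hr HEY2, TCF4 and others such as ID1 and NEUROD6 have all 3 on one side, as do further members at 0 and 48 hr. Of all tested probes, 15.3% had all 3 above 0 and 14.0% all 3 below 0 at 24 hr. ID1 at 48 hr has a single point at 0.98.

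Among the ID inhibitors, ID1 lay above 0 in 7 of 9 replicates. Its ratios were 0.16, 0.20 and 0.047 at 0 hr, then 0.18, 0.039 and 0.11 at 24 hr, and -0.19, -0.026 and 0.98 at 48 hr. All 3 replicates were thus above 0 at both early time points, but single arrays were not. At 0 hr 3 of 4, 8 of 11 and 8 of 10 arrays were above 0. At 24 hr 3 of 7, 4 of 8 and 4 of 6 were, and the median array of replicate 1 was -0.11. The 48 hr mean of 0.25 ± 0.63 (SD, n = 3; adjusted p = 0.795 in limma) came from replicate 3 alone. In that replicate ID1 was above 0 on 6 of 6 arrays, in both dye orientations, from 0.037 to 2.36. The lowest of these was the array of another brightness pattern, and without it the replicate stood at 1.21. Without 48 hr replicate 3 the mean at 48 hr was -0.11.

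ID3 had ratios of -0.25, 0.061 and -0.26 at 0 hr, then -0.071, 0.016 and -0.042 at 24 hr, and 0.033, -0.046 and -0.13 at 48 hr. It had 1 replicate of 3 above 0 at each time, and its 0 hr mean was -0.15 ± 0.18 (SD, n = 3; adjusted p = 0.838 in limma). ID4 was below 0 in all 3 replicates at 0 hr (-0.066, -0.15 and -0.036) and on both sides of it at 24 hr (-0.18, 0.034 and 0.079) and 48 hr (0.007, -0.12 and 0.022). ID2 was too dim to test (brightness 422.6), with ratios from -0.33 to 0.20 over its 9 replicates. The members of this family, which all inhibit E proteins, did not share a sign at any time point.

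The E proteins, the common dimer partners of tissue-specific bHLH factors, held the one member past the study's limits at a single time point with the limma p. TCF4, read here as the E protein also called ITF2, had ratios of -0.12, -0.22 and -0.49 at 24 hr, a mean of -0.28 ± 0.19 (SD, n = 3; standard error 0.10; 95% interval -0.49 to -0.059). Its adjusted p was 0.798 in limma. The ratio was below 0 in both orientations, -0.24 with neomycin in Cy3 and -0.32 with neomycin in Cy5, but 6 of 21 arrays were above 0, and its duplicate spots correlated at only 0.399. It rested in part on replicate 3: without it the mean was -0.17 (adjusted p = 0.995 in limma). At 0 hr TCF4 had -0.14, 0.24 and -0.26 and at 48 hr -0.050, -0.11 and -0.007, so it was below 0 in 8 of 9 replicates. The difference of 24 against 0 hr was -0.22 (95% interval -0.53 to 0.086, adjusted p = 0.997 in limma).

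TCF12 had ratios of -0.013, -0.038 and -0.25 at 0 hr, then 0.17, -0.094 and 0.38 at 24 hr and 0.029, 0.004 and -0.080 at 48 hr. TCF3, the gene of the E2A proteins, had -0.29, -0.18 and -0.036 at 0 hr (mean -0.17, adjusted p = 0.821 in limma), and replicates on both sides of 0 later. All 3 E proteins had means below 0 at 0 hr (-0.17 to -0.055) and 48 hr (-0.055 to -0.016), with TCF12 above 0 at 24 hr. The symbols are those of the array's design, and TCF3 and TCF4 have also been used for partners of beta-catenin.

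Among the neural bHLH factors, ATOH1, the hair cell determinant, stayed close to 0. It had ratios of -0.048, 0.021 and -0.095 at 0 hr, then -0.28, 0.15 and 0.18 at 24 hr, and -0.033, -0.029 and -0.002 at 48 hr. Its 48 hr replicates had an SD of 0.017 (n = 3), and the 95% interval of their mean ran from -0.21 to 0.17. NEUROG1, which specifies inner ear neurons, had 0.049, 0.089 and -0.029 at 0 hr and 0.11, -0.050 and 0.078 at 24 hr. At 48 hr it had 0.12, 0.057 and 0.34 (mean 0.17 ± 0.15, SD, n = 3; adjusted p = 0.632 in limma), all above 0. That mean was 0.37 with neomycin in Cy3 and -0.031 with neomycin in Cy5, and 0.25 without the arrays of another brightness pattern. NEUROD1, a downstream factor of NEUROG1, had 0.29, -0.10 and 0.29 at 24 hr and was above 0 in 7 of 9 replicates, with means of 0.040, 0.16 and 0.050 at 0, 24 and 48 hr.

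NEUROD6, a neuronal differentiation factor, had the lowest mean over the 9 replicates of the neural set (-0.15, adjusted p = 0.471 in limma). At 24 hr its ratios were -0.63, -0.062 and -0.20 (mean -0.29 ± 0.29, SD, n = 3; adjusted p = 0.798), all below 0. The 24 hr mean was 0.24 with neomycin in Cy3 and -0.82 with neomycin in Cy5, so the orientations gave opposite signs. NHLH2, also a neuronal factor, is named because it alone passed an unadjusted p of 0.05 at 0 hr in the main setting, and was chosen after its values were seen. It had -0.28, -0.034 and -0.26 at 0 hr (mean -0.19, adjusted p = 0.737 in limma) and -0.17, 0.037 and -0.27 at 24 hr. Without the arrays of another brightness pattern its 0 hr mean was -0.21 (unadjusted p = 0.0365, adjusted p = 0.684, both in limma). LYL1, at 0.20, then passed that limit at 0 hr as well (unadjusted p = 0.0318, adjusted p = 0.675, both in limma). NEUROG2 and the dim NEUROD4 complete the set, and the means of NEUROG2 ran from -0.11 to 0.033.

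The mesoderm and blood factors are markers of muscle, heart and blood lineages in the embryo. Of the 9 tested, 5, 7 and 7 were above 0 at 0, 24 and 48 hr, with medians of 0.021, 0.039 and 0.075. MYF6, a muscle determination factor, had the highest mean over the 9 replicates (0.13, adjusted p = 0.462 in limma), with 0.18, -0.18 and 0.46 at 0 hr, then 0.031, 0.046 and 0.40 at 24 hr, and 0.071, 0.21 and -0.053 at 48 hr. MYOG, which drives muscle differentiation, had the lowest (-0.071), with -0.29, 0.048 and 0.018 at 0 hr, then -0.007, -0.20 and 0.16 at 24 hr, and -0.23, 0.049 and -0.19 at 48 hr. LYL1, a blood cell factor named after its values were seen, was above 0 in 8 of 9 replicates with a mean of 0.13 (95% interval 0.021 to 0.23; adjusted p = 0.298 in limma, the smallest of any member). It was above 0 in both orientations, 0.20 with neomycin in Cy3 and 0.055 with neomycin in Cy5. In this set 6 of 9 members kept their sign between orientations, 5 of them above 0 in both. TCF21, in the study's list as lower at 0 and 48 hr, had -0.34, 0.091 and -0.40 at 0 hr. It had -0.004, 0.030 and 0.33 at 24 hr, and 0.059, 0.14 and -0.23 at 48 hr. Without the arrays of another brightness pattern its difference of 24 against 0 hr was 0.37 (unadjusted p = 0.0495, adjusted p = 0.999, both in limma). MYF5 reached the top of the scanner scale on 2 arrays, and its saturated spots were kept.

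The bHLH-zipper factors govern lipid metabolism, lysosomes and pigment cells. Their means over the 9 replicates stayed between -0.045 (SREBF1, a regulator of lipid synthesis) and 0.072 (TFE3, a regulator of lysosomal genes). TFE3 at 24 hr had 0.13, 0.15 and 0.20 (mean 0.16 ± 0.039, SD, n = 3; adjusted p = 0.822 in limma), above 0 in all 3 replicates, and at 0 hr it had 0.010, -0.12 and 0.24. SREBF1 had -0.22, 0.19 and -0.44 at 0 hr, then 0.18, -0.012 and 0.026 at 24 hr and -0.10, 0.13 and -0.17 at 48 hr. USF1, MITF, TFEB, TFEC and SREBF2 had time point means between -0.10 and 0.081, and USF2 was too dim to test.

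The bHLH-PAS and BHLHB group includes the hypoxia factors HIF1A and EPAS1, the dioxin receptor AHR and the circadian factors ARNTL, CLOCK, BHLHB2 and BHLHB3. HIF1A had 0.22, 0.19 and 0.13 at 48 hr (mean 0.18 ± 0.043, SD, n = 3; adjusted p = 0.684 in limma), with 0.11, -0.064 and -0.009 at 0 hr and, later, 0.11, -0.34 and 0.13 at 24 hr. Its 48 hr replicates thus reached or passed every value of the other times, though replicate 3 stood at 0.10 without the array of another brightness pattern, below the highest of them. The share of all tested probes so placed is not given here. Single arrays were split, with HIF1A above 0 on 3 of 5, 4 of 8 and 4 of 6 arrays of its 48 hr replicates. Over all times, however, its mean was 0.30 with neomycin in Cy3 and -0.19 with neomycin in Cy5. EPAS1 had the lowest mean of the group (-0.12, adjusted p = 0.525 in limma) and was below 0 in 8 of 9 replicates. Its ratios were -0.077, -0.065 and -0.007 at 0 hr, then -0.26, -0.075 and -0.079 at 24 hr, and 0.22, -0.67 and -0.091 at 48 hr. In 48 hr replicate 2 it was below 0 on 8 of 8 arrays, from -1.36 to -0.25.

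AHR, named after its values were seen, had the widest swing between time points. Its ratios were -0.14, 0.027 and 0.14 at 0 hr, then 0.36, 0.12 and 0.23 at 24 hr, and 0.27, -0.68 and -0.31 at 48 hr. Its 24 hr replicates were all above 0, and those of 48 hr were split. The difference of 48 against 24 hr was -0.48 (standard error 0.19; 95% interval -0.90 to -0.056; unadjusted p = 0.0297, adjusted p = 0.999, both in limma). It was -0.73 without 48 hr replicate 1 and -0.26 without 48 hr replicate 2 (unadjusted p = 0.164 in limma), and its unadjusted p was also above 0.05 without 24 hr replicate 1, 24 hr replicate 3 or 48 hr replicate 3. The 48 hr mean of AHR was 0.025 with neomycin in Cy3 and -0.50 with neomycin in Cy5. BHLHB3, likewise named after its values were seen, had -0.22, -0.31 and -0.18 at 48 hr (mean -0.24 ± 0.066, SD, n = 3; adjusted p = 0.680 in limma) and was below 0 on 15 of 19 arrays there. Without the array of another brightness pattern, replicate 3 stood at -0.26 and the mean at -0.26 (unadjusted p = 0.0484, adjusted p = 0.588, both in limma). At 24 hr it had -0.15, 0.59 and -0.10. ARNT, ARNT2, ARNTL, BHLHB2, CLOCK, NPAS1, NPAS2, SIM1 and SIM2 had time point means between -0.14 (CLOCK at 0 hr) and 0.10 (SIM2 at 48 hr), and of these ARNTL, CLOCK and SIM1 were too dim to test.

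Between time points 0 members were called in limma, as were 0% of all tested probes. Most days of array quantification held a single time point, so these differences are partly confounded with the day. At an unadjusted p under 0.05 there were 0 members for 24 against 0 hr, beside 2.58% of all probes, 2 for 48 against 24 hr (AHR and HEY2), beside 3.67%, and 0 for 48 against 0 hr, beside 2.73%. With 1.2-fold added there were 0 members for 24 against 0 hr, beside 2.19% of all probes, 1 for 48 against 24 hr (AHR, lower), beside 2.97% and 1.33% in the lower direction, and 0 for 48 against 0 hr, beside 2.19%. The smallest adjusted p-values among the members were 0.997, 0.999 and 0.998.

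The ratios of most members differed in sign between the 2 dye orientations, as did those of most tested probes. Whether a single member's ratio depended on the dye was not tested. Over the 9 replicates, 14 of the 44 members (31.8%) had means of the same sign with neomycin in Cy3 and with neomycin in Cy5, 8 of them above and 6 below 0, against 42.9% of all tested probes. The other 30 members (68.2%, against 57.1% of all tested probes) had means of opposite sign. For these the part of the ratio that followed the dye was by definition larger than the part that followed the treatment. Over the 44 members the median sizes of the 2 parts were 0.074 and 0.042, against 0.059 and 0.050 over all tested probes. HEY1 averaged 0.35 with neomycin in Cy3 and -0.23 with neomycin in Cy5, MYF5 0.34 and -0.19, and HES2 -0.19 and 0.15. In the HES and HEY set 1 of 5 members kept its sign, in the bHLH-zipper set 0 of 7 and in the ID set 2 of 3 (ID1 and ID3). Since each replicate value is the mean of both orientations, the dye part cancels in it to the extent that it was equal on the arrays averaged.

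**Figure D4:**
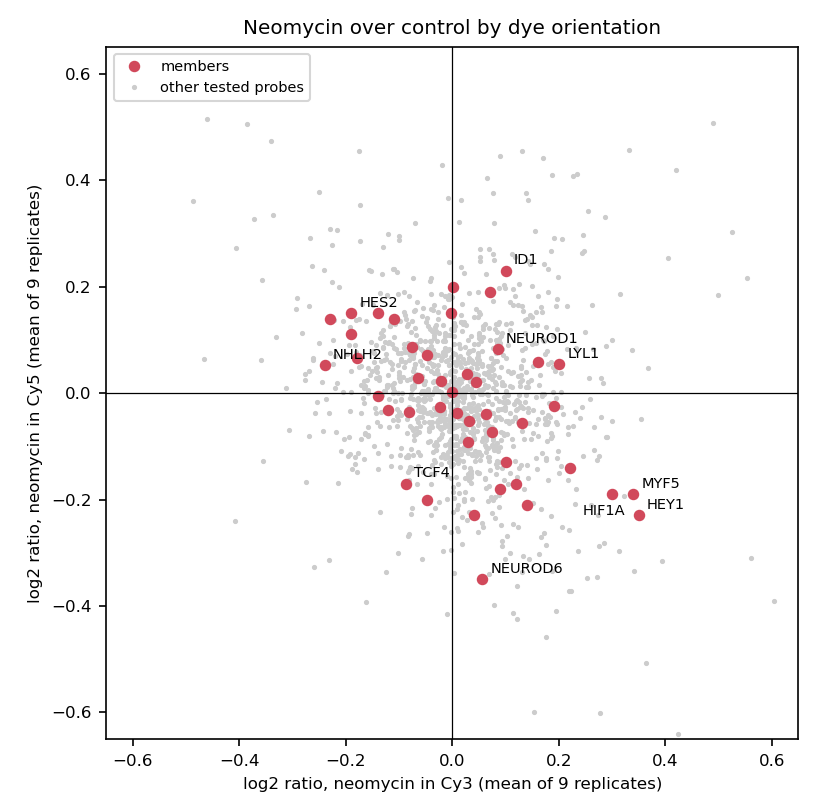
Mean log2 ratio of neomycin over control over the 9 replicates with neomycin in Cy3 (x axis) and with neomycin in Cy5 (y axis); red points are the 44 tested members, grey points the other tested probes, 3 of which lie outside the axes. Members in the upper left and lower right, such as HEY1 at 0.35 and -0.23, changed sign with the dye orientation; ID1, LYL1 and NEUROD1 did not.

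Arrays of a single replicate seldom lay on the same side of 0. Of the 396 combinations of a tested member and a replicate, 8 (2.02%) had every array of the replicate on one side of 0, against 3.96% over all tested probes. They included ID1 in 48 hr replicate 3, EPAS1 and BHLHB3 in 48 hr replicate 2 and HES2 in 0 hr replicate 3. The others were AHR in 48 hr replicate 1 (above 0 on 5 of 5 arrays), MYOD1 in 48 hr replicate 3 (below 0 on 6 of 6), and MYF6 and SREBF1 in 0 hr replicate 1, which had 4 arrays. AHR was below 0 on 7 of 8 arrays of 48 hr replicate 2, against its 5 of 5 above 0 in replicate 1.

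Genes outside the rule that act with the members gave a similar picture. Of 10 tested partners of Notch effectors (corepressors, coactivators and histone modifying enzymes), 4, 3 and 3 were above 0 at 0, 24 and 48 hr, with medians of -0.034, -0.023 and -0.014, and 0 were called in limma. FHL1, the symbol of an RBPJ-binding LIM protein, passed 1.2-fold and an unadjusted p of 0.05 at 0 hr, at -0.28 (adjusted p = 0.737 in limma). Of all tested probes 3.12% passed there. The replicates of FHL1 were split (-0.52, 0.14 and -0.48). Over all times it had 0.11 with neomycin in Cy3 and -0.41 with neomycin in Cy5. HRY, the hairy homologue also known as HES1 and a main Notch target, had means of -0.025, 0.004 and -0.012 at 0, 24 and 48 hr. Of 15 other tested bHLH genes and bHLH coactivators, 9, 8 and 11 were above 0, with medians of 0.014, 0.003 and 0.022, and 0 were called. Among them NCOA2, a coactivator with a bHLH-PAS domain, passed the same limits at 48 hr, at -0.29 (adjusted p = 0.598 in limma), beside 2.89% of all probes. Over all times NCOA2 had -0.28 with neomycin in Cy3 and 0.036 with neomycin in Cy5. MAX, the partner of MYC, had 0.22 at 48 hr (adjusted p = 0.632 in limma). The 5 tested circadian partners had medians of -0.005, -0.082 and -0.074, with 0 past those limits.

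The markers of cell types in and around the epithelium were mostly near background. Of the hair cell markers, ATOH1 and BARHL1 were tested, POU4F3 and GFI1 were too dim and none was detected at any time, and the means of all 4 lay between -0.15 and 0.049. Of the supporting cell and prosensory markers, 4 of the 7 on the array were tested and SOX2 was detected, at 48 hr only. SOX2 had means of 0.13, 0.21 and -0.13 at 0, 24 and 48 hr. Among the 4 tested, 2, 4 and 1 were above 0 at these times. The other means at 48 hr were 0.18 for PAX2, -0.12 for GATA3 and -0.012 for HRY. Of the 4 tested neuron markers, 3, 3 and 4 were above 0 at 0, 24 and 48 hr. Of the tested markers of stroma (2), neurons (4), blood (5) and cell division (3), 0 were called, E2F2 was detected at 0 and 48 hr and no other was detected. POU4F1, a sensory neuron marker, had a mean of 0.34 at 24 hr (unadjusted p = 0.0210, adjusted p = 0.798, both in limma), from 0.75, 0.17 and 0.11. Over all times POU4F1 had -0.067 with neomycin in Cy3 and 0.17 with neomycin in Cy5. At 24 hr NEUROD1 had 0.16, NEUROG1 0.047 and ISL1, the fourth of the list, -0.065. The part of neurons in the values of the members NEUROD1 and NEUROG1 was not tested. Of the blood markers, which include the members LYL1 and TAL1, 2, 2 and 4 of 5 were above 0 at 0, 24 and 48 hr. At 48 hr LYL1 and GATA1 had means of 0.18, TAL1 0.11, SPI1 0.027 and RUNX1 -0.11. The replicates of GATA1 there were 0.32, -0.10 and 0.32. The part of blood cells in LYL1 was not tested.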

How the data were processed

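The scanner's quantification (ImaGene 4.1) was deposited as spot and background intensity for each dye, not normalized; the deposited series matrix held log2 ratios, neomycin over control and not centred, of the uncorrected intensities (largest difference 5.33e-15), with array medians from -2.03 to 1.81. Intensities were corrected with normexp (offset 50) and normalized by global loess in limma 3.58.1 (R 4.3.3), with spots of no gene at weight 0 and marked spots left out. Ratios were turned to neomycin over control, spots averaged, then arrays within dye orientation, then both orientations, giving 9 replicate values. A brightness minimum of 1000 would have removed 83.0% of probes, so the dimmest 15% were removed, leaving 1281. Each time point was fitted by lmFit and eBayes, with Benjamini-Hochberg adjustment over all 1281. Named genes were the members past a call or the study's limits, all Notch, HES, HEY and ID members, ATOH1, NEUROG1, NEUROD1 and the highest and lowest mean in each other set. Members and lists were chosen with earlier results of these data known. Alternatives covered background correction, normalization, filters, dye orientation, tests, blocks and leaving out replicates; leaving out all 3 arrays of another brightness pattern was added after seeing the data. The fit was tested on simulated data. Same-numbered replicates were not treated as pairs (correlations from -0.11 to 0.188, over 0.1 in 2 of 9 pairs). Some of them shared quantification days, however. Replicate 2 of 24 and 48 hr was quantified on days 12 and 13, and day 7 held arrays of replicate 3 of 0 and 24 hr. Every other day held a single time point.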

Additional observations from a re-analysis of the deposited data

Results flagged for a closer look

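USF1, a widely expressed bHLH-zipper factor, was on opposite sides of 0 at the first time points: its log2 ratios were -0.070, -0.012 and -0.089 at 0 hr, but 0.046, 0.017 and 0.019 at 24 hr. The difference of 24 against 0 hr was 0.084 (95% interval -0.12 to 0.29, unadjusted p = 0.390, adjusted p = 0.997, both in limma). How often such a split occurs over all tested probes is not given here. Single arrays did not keep to it: at 24 hr USF1 was below 0 on 5 of 7 arrays of replicate 1 and 3 of 6 of replicate 3. USF1 was named after its values were seen.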

How the results depend on the processing

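No member was called in any comparison under any alternative, by limma or by the methods' t-test, and the smallest adjusted p of any member was 0.0963 (AHR, 48 against 24 hr, limma, random block for the quantification day). No alternative turned a result past both 1.2-fold and an unadjusted p of 0.05 to the other direction. NEUROG1 at 48 hr, which passed the limit of p alone, was above 0 in the main setting and below 0 with neomycin in Cy5 alone. What did move was the number of members past 1.2-fold and an unadjusted p of 0.05, and the cause was not tested. At 0 hr (0 members) it was 1 with scale normalization and 2 on arrays with neomycin in Cy5 alone. At 24 hr (1 member, TCF4) it was 0 with median centring, loess within subgrids, scale normalization, a brightness of 1000 or more (8 members left), either form of the methods' t-test and the series matrix values, as deposited or centred. It was 2 with plain subtraction, without the filter, with the biological replicate as a random block and with the replicate number as a replicate block, and 3 with neomycin in Cy3 alone. At 48 hr (0 members) it was 1 with loess within subgrids, with neomycin in Cy5 alone and with a random block for the quantification day, 2 with the biological replicate as a random block, 3 with plain subtraction and 7 with neomycin in Cy3 alone. In the mean over time points (0 members) it was 3 with neomycin in Cy3 alone and 1 with the series matrix values, as deposited or centred. Between time points, where these counts were added after seeing the data, 24 against 0 hr (0 members) gave 1 with no background correction, median centring, no filter, a plain mean over arrays and without the 2 arrays of lowest pattern correlation, and 2 with loess within subgrids and without the 3 arrays of another pattern. For 48 against 24 hr (1 member, AHR) it was 0 with median centring, a brightness of 1000 or more, both forms of the series matrix and the methods' t-test on replicate values, 3 with loess within subgrids, and 2 with scale normalization, either orientation alone, a plain mean over arrays, without those 2 or 3 arrays, the methods' t-test over hybridisations and both random blocks. With plain subtraction the 1 member past the limits for 48 against 24 hr was in the higher direction, where AHR was lower in the main setting. Of the 2 with neomycin in Cy3 alone, 1 was higher and 1 lower. For 48 against 0 hr (0 members) the number was 1 with plain subtraction, median centring, the methods' t-test over hybridisations and both random blocks. Leaving out each replicate gave 0 to 2, 0 to 2 (0 without 48 hr replicate 2) and 0 to 3 (3 without 0 hr replicate 2) for these 3 differences. Leaving out each replicate in turn gave 0 to 4 at each time point: 4 without 0 hr replicate 2 and 1 without 0 hr replicate 3 at 0 hr, 4 without 24 hr replicate 2 and 0 without 24 hr replicate 3 at 24 hr, and 4 without 48 hr replicate 1 and 1 without 48 hr replicate 3 at 48 hr. The replicate block, whose numbers were not treated as pairs in the main setting, left every estimate as it was, because the design was balanced. Its 0 sign changes in 84 values of named members were thus fixed in advance. Of these 84 values, taking 1 dye orientation alone changed the sign of 23 (neomycin in Cy3) and 24 (neomycin in Cy5). The series matrix values as deposited changed the sign of 12. The low signal over background and the 3 replicates at a time point limit what the arrays could show.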
